A study of Mus musculus with 8 samples.

Results

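A difference between a parthenogenetic and a conventional mouse stem cell line can be lost when the cells differentiate, or it can stay. The genes described here differed between the undifferentiated lines, and their parthenogenetic level stayed when the parthenogenetic cells differentiated. They were 123 of 18194 genes measured on 8 Affymetrix arrays, of which 51 were higher and 72 lower in the parthenogenetic line. They were chosen by their measured values. The means of parthenogenetic stem cells (PSC) and embryonic stem cells (ESC) had to lie at least 1 log2 unit apart. The mean of embryoid bodies grown from the same PSC (EB_PSC) had to lie within 0.5 of the PSC mean, and the higher of the PSC and ESC means had to exceed 7. Genes of chromosomes 12, X and Y and known imprinted genes were left out. Because both differences served to choose the genes, all of their values below are descriptions without a test.

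PSC (3 arrays) came from C57BL/6 mice: oocytes of superovulated females were activated with strontium chloride without sperm, and the cells were isolated on day 6. EB_PSC (2 arrays) were PSC that had been cultured for 15 days as embryoid bodies, which are aggregates of differentiating cells. ESC (3 arrays) were the line R1, whose strain the labels do not give, grown with leukemia inhibitory factor on feeders, which are embryonic fibroblasts. The labels name no transgene or deletion in any group and do not say whether replicate arrays stand for separate cultures, so the spread among them may be technical. No embryoid bodies of ESC were measured, so EB_PSC minus ESC compares differentiated with undifferentiated cells. Whether the lines still differ once both have differentiated was not tested. The origin of the genome, the line, the strain, the sex chromosomes and the feeders cannot be told apart in any difference from ESC.

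A parthenogenetic cell carries maternal chromosomes only, so imprinted genes, which are read from 1 parental copy, differ from those of a fertilised embryo by their parental marks. Genes outside imprinted regions can differ between stem cell lines through DNA sequence variants, through copy number or through epigenetic states that each line settles into in culture. When stem cells form embryoid bodies, pluripotency genes fall and genes of heart, blood, gut and connective tissue rise, so a transcript that stays at its level does so while much of the transcriptome moves.

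The groups carried the transcripts their labels lead to. The mean of 10 pluripotency markers was 11.32 to 11.49 on PSC arrays, 11.68 to 11.97 on ESC arrays and 9.17 to 9.33 in embryoid bodies. Of these 10 only Zfp42 was at least 1 lower in PSC than in ESC, by -2.73. The mean of 7 cardiomyocyte markers was at most 5.05 in both stem cell groups and 8.98 to 9.77 in embryoid bodies. The mean of 10 fibroblast markers was 6.33 to 6.54 in PSC, 7.19 to 7.54 in ESC and 9.28 to 9.80 in embryoid bodies, and 5 of these 10 were at least 1 lower in PSC than in ESC. In such mixed cultures fewer cells of a type and less RNA per cell cannot be told apart.

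Of the genes that differed between PSC and ESC, about 1 in 3 kept their level in embryoid bodies. After the exclusions 7681 genes had a mean above 7 in PSC or ESC, and 362 of them differed by at least 1. Of these 362 genes, 123 (34.0%) stayed within 0.5 in embryoid bodies, against 48.4% of the 7319 genes with a smaller difference. The share was alike in both directions, with 51 of 151 higher genes (33.8%) and 72 of 211 lower genes (34.1%). Among the 239 genes that were not kept, 153 moved towards the ESC level and 86 moved further from it. The PSC mean enters both differences, which by itself favours movement towards ESC and so fewer steady genes. Nothing is read from this split or from the share of 34.0% against 48.4%. A further 25 genes passed the numeric limits and were left out, 12 of them on chromosome 12, 8 on X, 2 on Y and 3 imprinted genes elsewhere. Over all measured genes 3.02% differed by at least 1 between PSC and ESC, 64.2% stayed within 0.5 in embryoid bodies and 0.813% passed all 3 numeric limits.

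**Figure D1:**
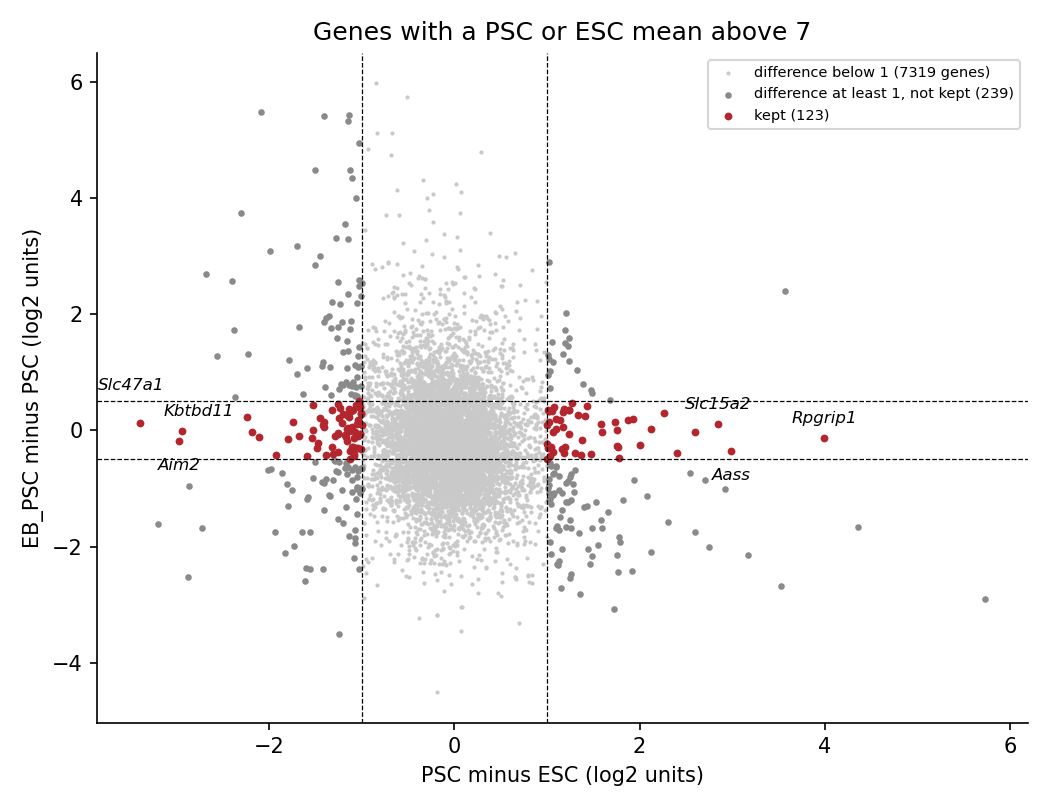
Each point is a gene with a PSC or ESC mean above 7, placed by its PSC minus ESC difference (horizontal, log2 units) and its EB_PSC minus PSC difference (vertical, log2 units), with dashed lines at the limits of 1 and 0.5. The 123 chosen genes fill the 2 fields outside 1 and inside 0.5, with, among them, Rpgrip1 at 3.99 farthest to the right and Slc47a1 at -3.40 farthest to the left.

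Most of the differences were moderate. The median size was 1.20 log2 units between PSC and ESC and 1.33 between embryoid bodies and ESC, 69 genes lay below 1.25 and 14 reached 2 (8 higher, 6 lower). The standard error from a limma fit of all arrays had a median of 0.14 for PSC minus ESC and 0.16 for EB_PSC minus PSC, so 52 genes lay within 1 standard error of the limit of 1 and 38 within 1 standard error of the limit of 0.5. The PSC and ESC arrays did not overlap in any of the 123 genes, against 36.5% of all genes. All 5 PSC and EB_PSC arrays lay on the same side of the 3 ESC arrays in 121 genes, against 19.5% of all genes. The exceptions were Fcsk and Esrp2. Both shares follow largely from the rule and nothing is read from them. Within the allowed range embryoid bodies moved towards ESC in 60 genes and away in 63, and the ranges of the EB_PSC and PSC arrays did not overlap in 67 genes (54.5%), against 62.8% of all genes.

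The count in each direction depended on the scaling of the arrays. After a second quantile normalization 69 genes were higher and 52 lower, and after cyclic loess 65 were higher and 58 lower, in place of 51 and 72. No chosen gene changed direction under either, and the split shifted through genes that entered or left the selection.

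Rpgrip1, which encodes a scaffold of the photoreceptor connecting cilium, had the largest difference of the 123 genes. Its log2 signal was 12.79, 12.64 and 12.36 in PSC, 12.42 and 12.51 in embryoid bodies, and 8.55, 8.88 and 8.38 in ESC. All 5 arrays of the parthenogenetic line lay more than 3 log2 units above the highest ESC array. The PSC mean was 3.99 ± 0.15 (SE) above ESC, which is 15.9-fold, and embryoid bodies differed from PSC by -0.13 ± 0.17. This held for a single probe set. The gene's other 3 probe sets had group means between 3.28 and 4.84 and differences of 0.18, -0.10 and 0.47.

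Aass encodes the enzyme that begins lysine breakdown in mitochondria. It stood at 8.09, 8.17 and 8.30 in PSC, at 7.90 and 7.77 in embryoid bodies and at 5.38, 5.33 and 4.88 in ESC. Slc15a2 encodes a proton-coupled transporter of small peptides, and it stood at 7.74, 7.80 and 7.71 in PSC, at 7.93 and 7.79 in embryoid bodies and at 4.69, 4.94 and 5.06 in ESC. In both genes the ESC mean lay below 5.44, the median of all values in the table, where signals compress. Their differences of 2.99 ± 0.14 and 2.85 ± 0.12 are therefore lower bounds for the probe sets used, and no fold is given. The same holds for Nol4l, with a difference of 2.27 ± 0.13. Slc15a2 has 2 further probe sets, at means of 4.56 to 5.59, which differed by -0.00 and -0.18.

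Other genes with a large excess in PSC encode a secreted factor, a homeobox protein and a deubiquitinase. C1qtnf12, which encodes a secreted protein of the C1q and tumour necrosis factor family, was 9.01, 8.74 and 8.82 in PSC, 8.96 and 8.71 in embryoid bodies, and 6.57, 5.81 and 6.42 in ESC (6.04-fold). Its other 3 probe sets differed by 0.79, 0.22 and 0.07, so the size rests on the probe set. Hesx1, a homeobox repressor of early forebrain and pituitary development, was 7.69, 7.98 and 7.94 in PSC, 7.55 and 7.42 in embryoid bodies, and 5.11, 5.54 and 5.75 in ESC (5.29-fold). Its embryoid body arrays lay below every PSC array, by an amount inside the limit. Mindy2, which encodes a deubiquitinase, was 8.76, 8.67 and 8.37 in PSC, 8.67 and 8.58 in embryoid bodies, and 6.43, 6.52 and 6.48 in ESC (4.36-fold). Its other probe sets differed by 2.62 and 1.52, although on the first of them the embryoid body mean was at -0.90 against PSC. Zfp869, a zinc finger gene, was the smallest of the 8 that reached 2, with 2.00 ± 0.16.

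The gene that was lowest in PSC relative to ESC was Slc47a1, which encodes an exporter of organic cations and drugs in kidney and liver. It stood at 4.30, 4.47 and 4.28 in PSC, at 4.12 and 4.81 in embryoid bodies and at 7.78, 7.67 and 7.79 in ESC, a difference of -3.40 ± 0.15. Aim2, the cytosolic sensor of double-stranded DNA, stood at 4.04, 4.03 and 4.18 in PSC, at 4.14 and 3.65 in embryoid bodies and at 7.27, 6.88 and 7.03 in ESC. Kbtbd11, which encodes a protein with kelch and BTB domains, stood at 5.70, 5.29 and 5.12 in PSC, at 5.11 and 5.61 in embryoid bodies and at 8.30, 8.41 and 8.20 in ESC. In these genes, and in Xaf1, Myo1f and Tmprss13, the PSC mean was below 5.44 and the difference is a lower bound for the probe set used. The embryoid body mean of Kbtbd11 differed from PSC by -0.01, the smallest such difference among the genes that reached 2. The difference of Kbtbd11 lies on 1 probe set: its other 3, at means of 3.51 to 5.00, differed between PSC and ESC by 0.04, -0.16 and 0.08, and the mean of its probe sets by -0.75.

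Xaf1, an interferon-inducible gene whose protein binds the apoptosis inhibitor XIAP, was 5.32, 5.24 and 5.01 in PSC, 5.31 and 5.52 in embryoid bodies, and 7.40, 7.49 and 7.39 in ESC. Its other probe set went the other way, by 0.48. Zfp423, a zinc finger factor of neural and fat cell development, was 5.99, 5.89 and 5.54 in PSC, 5.88 and 5.66 in embryoid bodies, and 8.31, 7.95 and 7.70 in ESC (4.54-fold). Aven, which encodes an inhibitor of apoptosis, was 7.01, 6.95 and 7.09 in PSC, 6.90 on average in embryoid bodies, and 9.38, 8.95 and 9.06 in ESC (4.33-fold). In each of these 3 genes both embryoid body arrays lay close to the PSC arrays and more than 1 log2 unit below every ESC array.

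**Figure D2:**
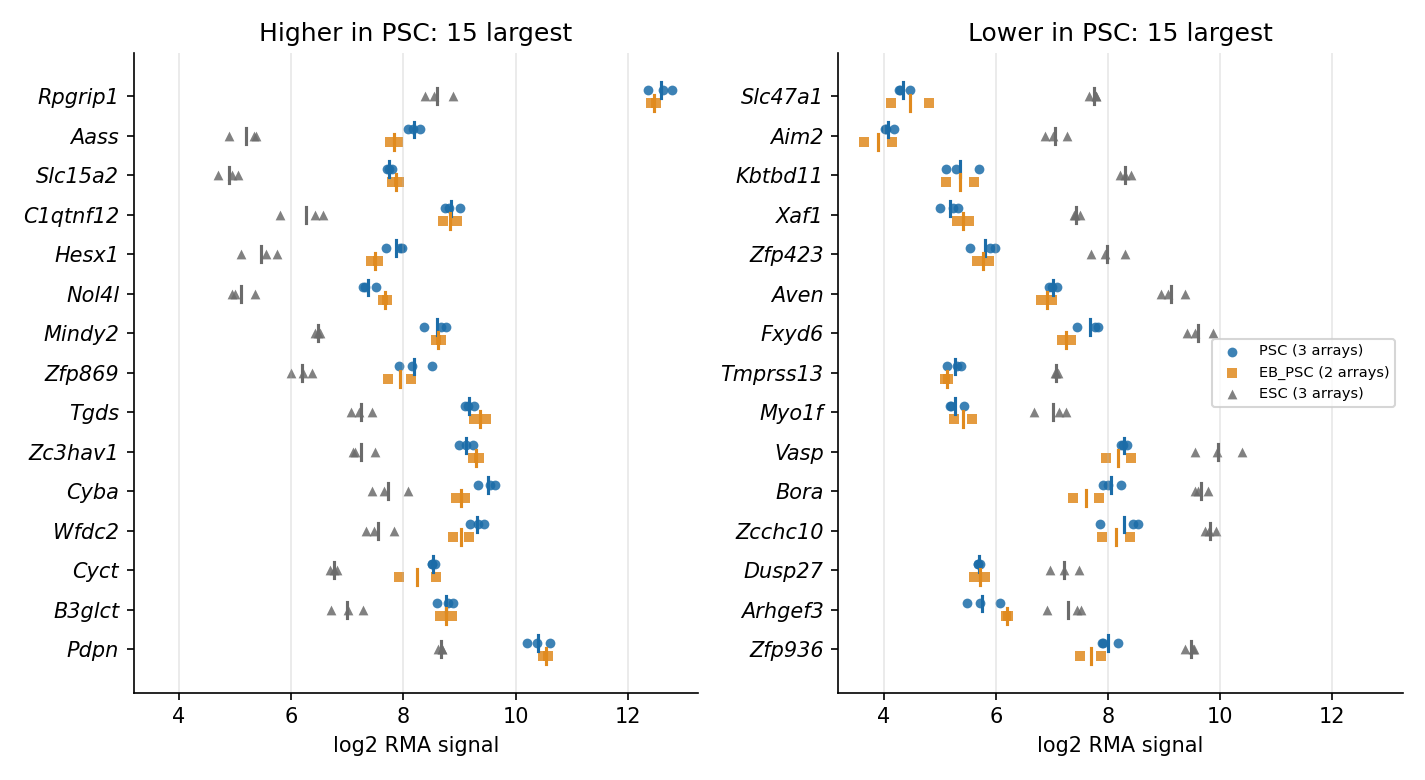
Log2 RMA signal (horizontal) on each array for the 15 genes most above ESC (left) and the 15 most below (right), with circles for 3 PSC arrays, squares for 2 EB_PSC arrays and triangles for 3 ESC arrays, and a vertical bar at each group mean. In all 30 genes circles and squares lie together on 1 side of the triangles.

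Promoters of a few of these genes are printed for the letters they hold. Windows run from 250 bases before to 50 bases after the annotated start in RefSeq (GRCm38.p6), 5′ to 3′ on the gene's own strand, and capitals mark matches, on either strand, to TATAAA (the TATA box), CCAAT (the CCAAT box), GGGCGG (a GC box), CACGTG (an E-box) and TGACGTCA (a cyclic AMP response element). No motif is contained in another. The first 2 genes were higher and the next 3 lower in PSC by at least 2 log2 units, and Mzt1 starts beside another chosen gene.
Rpgrip1, chr14:52110653-52110952, plus strand: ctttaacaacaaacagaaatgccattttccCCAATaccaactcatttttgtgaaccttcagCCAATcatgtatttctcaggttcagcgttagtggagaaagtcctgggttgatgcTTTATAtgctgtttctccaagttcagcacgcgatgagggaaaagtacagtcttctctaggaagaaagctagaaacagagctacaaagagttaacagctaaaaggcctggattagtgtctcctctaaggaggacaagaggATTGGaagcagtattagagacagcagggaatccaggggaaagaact
Aass, chr6:23132937-23133236, minus strand: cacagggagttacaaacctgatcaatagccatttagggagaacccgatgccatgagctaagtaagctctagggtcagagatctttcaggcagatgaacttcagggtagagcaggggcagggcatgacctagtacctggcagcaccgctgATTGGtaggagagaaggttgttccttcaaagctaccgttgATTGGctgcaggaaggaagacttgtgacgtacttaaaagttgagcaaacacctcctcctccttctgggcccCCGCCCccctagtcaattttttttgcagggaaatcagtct
Aim2, chr1:173420354-173420653, plus strand: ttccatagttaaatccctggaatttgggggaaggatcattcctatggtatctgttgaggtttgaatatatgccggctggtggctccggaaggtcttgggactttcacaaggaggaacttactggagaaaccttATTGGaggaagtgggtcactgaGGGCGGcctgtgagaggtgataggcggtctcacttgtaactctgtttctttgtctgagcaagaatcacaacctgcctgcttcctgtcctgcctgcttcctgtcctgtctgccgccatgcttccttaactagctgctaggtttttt
Xaf1, chr11:72301379-72301678, plus strand: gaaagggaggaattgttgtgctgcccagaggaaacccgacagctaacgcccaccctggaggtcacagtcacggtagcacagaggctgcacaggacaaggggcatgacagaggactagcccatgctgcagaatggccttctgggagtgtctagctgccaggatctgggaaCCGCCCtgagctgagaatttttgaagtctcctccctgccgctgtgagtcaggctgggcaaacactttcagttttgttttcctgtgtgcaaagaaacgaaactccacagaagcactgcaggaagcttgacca
Zfp423, chr8:87959546-87959845, minus strand: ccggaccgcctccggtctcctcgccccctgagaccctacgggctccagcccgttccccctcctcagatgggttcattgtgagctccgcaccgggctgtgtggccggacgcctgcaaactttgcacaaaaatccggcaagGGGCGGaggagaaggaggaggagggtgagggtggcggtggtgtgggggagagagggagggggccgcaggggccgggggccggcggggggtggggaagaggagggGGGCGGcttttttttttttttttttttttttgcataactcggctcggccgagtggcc
Mzt1, chr14:99046087-99046386, minus strand: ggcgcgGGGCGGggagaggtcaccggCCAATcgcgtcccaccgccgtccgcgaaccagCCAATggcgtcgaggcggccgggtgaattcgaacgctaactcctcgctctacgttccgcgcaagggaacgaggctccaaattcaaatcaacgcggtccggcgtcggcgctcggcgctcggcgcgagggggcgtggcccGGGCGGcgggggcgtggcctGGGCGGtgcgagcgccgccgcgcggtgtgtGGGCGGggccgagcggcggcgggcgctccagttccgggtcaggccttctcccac
The window of Rpgrip1 holds 3 CpG dinucleotides, 3 matches to CCAAT and 1 to TATAAA. Aass and Aim2 hold 5 CpG each, Xaf1 holds 6 and Zfp423 holds 21, with 2 matches to GGGCGG. The Mzt1 window holds 51 CpG and 4 matches to GGGCGG, and the annotated start of Bora lies inside it.

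Over all chosen genes the promoter features lay on both sides of those of other genes. A window was found for 99 of the 123, with a median of 20 CpG, against 23 in 6289 genes with a PSC or ESC mean above 7 and 17 in 14453 genes with a window. The median was 18 in the genes higher in PSC and 20 in the lower ones. CCAAT occurred in 42.4% of the chosen genes, against 39.5% of genes above 7, and GGGCGG in 72.7% against 69.1%. TATAAA occurred in 9.09% against 6.17%, CACGTG in 8.08% against 11.4%, and TGACGTCA in 1.01% against 3.80%. Over all windows the shares were 38.2%, 54.0%, 9.87%, 9.02% and 2.68% in the same order. A match is a string of letters and no evidence that a factor binds there.

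Grouped by what their products do, in groups drawn up after the values were known, the genes spread over many functions. The overall split of 51 higher and 72 lower changed with the scaling, so the group counts below are descriptions only. Enzymes of metabolism were mostly higher in PSC, 12 of 17, against 51 of 123 overall. They comprised Aass, Tgds of nucleotide sugar metabolism (1.93 ± 0.13), the testis form of cytochrome c Cyct (1.76 ± 0.15), the mitochondrial phosphatase Ppm1k (1.48 ± 0.11), brain glycogen phosphorylase Pygb (1.37 ± 0.20), carbonic anhydrase Car13 (1.27 ± 0.12) and 6 others at 1.00 to 1.24. The lower genes were glutathione transferase Gstp1 (-1.25 ± 0.10), Uck2, Decr2, Pgls and the purine enzyme Pnp. Gstp1 was 11.00, 11.05 and 10.98 in PSC, 11.24 and 11.19 in embryoid bodies, and 12.33, 12.21 and 12.23 in ESC, so its embryoid body arrays lay between the 2 lines, nearer to PSC.

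Genes of glycosylation and the secretory pathway were higher in 5 of 7 cases, against 51 of 123 overall. Among the higher ones were B3glct, which adds glucose to O-linked fucose, and Alg8, which builds the N-glycan precursor. B3glct was 8.79, 8.88 and 8.60 in PSC, 8.87 and 8.65 in embryoid bodies, and 7.02, 7.27 and 6.71 in ESC (3.38-fold). The coat protein gene Sec23b (-1.26 ± 0.12) and the collagen-modifying Crtap (-1.15 ± 0.13) were lower. Transporters and receptors split 5 to 3, with the flippase gene Atp8a1 at 1.60 ± 0.12 and the sodium pump regulator Fxyd6 at -1.93 ± 0.15. The value of Atp8a1 rests on its brightest probe set, and the mean of all its probe sets differed by 0.51.

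Innate immune genes went both ways, 5 higher and 4 lower. Zc3hav1, whose antiviral protein binds CpG-rich RNA, was 9.12 ± 0.12 (SD, n = 3) in PSC, 9.35 and 9.23 in embryoid bodies, and 7.14, 7.49 and 7.10 in ESC (3.67-fold). Cyba, a subunit of the phagocyte NADPH oxidase, was 3.42-fold higher in PSC, and its embryoid body mean was 0.48 below PSC, near the limit. The cytokine receptor gene Crlf2 (1.37 ± 0.13), progranulin Grn (1.14 ± 0.20) and complement C2 (1.00 ± 0.13) were also higher. The lower genes were Aim2, Xaf1, the leukocyte myosin Myo1f (-1.74 ± 0.16) and the galectin Lgals9 (-1.48 ± 0.22). In Lgals9 the ESC arrays themselves ran from 7.80 to 8.93.

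Transcription and chromatin genes were lower in 12 of 15 cases, against 72 of 123 overall. Beside Zfp423 they comprised Foxd3, a factor of pluripotent cells and neural crest, Trps1, Supt16 of the FACT histone chaperone, the kinase Cdk12, the mediator subunit Med29 and 6 others. Foxd3 was 5.62, 5.75 and 5.86 in PSC, 6.14 and 6.03 in embryoid bodies, and 7.57, 7.07 and 6.56 in ESC. The ESC arrays of Foxd3 spread over 1 log2 unit, and the lowest of them lay nearer to embryoid bodies than to the highest ESC array. RNA processing genes were lower in 9 of 10 cases, against the same 72 of 123. The lower ones lay between -1.32 ± 0.13 for the circadian gene Noct and -1.03 ± 0.16 for Rrp8. They included the splicing factor genes Hnrnpl (-1.18 ± 0.18) and Hnrnpm (-1.04 ± 0.16), and the exception was the long noncoding RNA Snhg6 (1.02 ± 0.17).

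Cytoskeleton, adhesion and small GTPase genes were lower in 13 of 14 cases, against 72 of 123 overall. Vasp, a promoter of actin filament growth, was 8.23, 8.26 and 8.34 in PSC, 8.41 and 7.96 in embryoid bodies, and 10.38, 9.55 and 9.94 in ESC (3.20-fold). The exchange factor genes Arhgef3 (-1.53 ± 0.17) and Tiam1 (-1.07 ± 0.17), the Ras relative Mras (-1.18 ± 0.14) and the epithelial adhesion gene Epcam (-1.08 ± 0.12) were lower as well. The exception was Pdpn, a mucin-like membrane glycoprotein, which was 10.37, 10.61 and 10.21 in PSC, 10.58 and 10.48 in embryoid bodies, and 8.70, 8.61 and 8.68 in ESC (3.33-fold). The 10 fibroblast markers also had a median PSC minus ESC difference of -1.03, with a median EB_PSC minus PSC difference of 3.08, and their part in this count was not tested.

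S100a4, a calcium-binding protein gene of motile cells, was both a fibroblast marker and a chosen gene. It was 6.31, 6.63 and 6.97 in PSC, 6.30 and 7.42 in embryoid bodies, and 8.41, 8.24 and 7.63 in ESC. The embryoid body arrays lay 1.13 apart, the widest gap of the 123 genes, with 1 below the lowest and 1 above the highest PSC array. Among genes of cell division and survival the Aurora kinase activator Bora (-1.60 ± 0.14), the telomere protein gene Terf1 (-1.14 ± 0.17) and Mzt1 (-1.10 ± 0.13) were lower with Aven. The cyclin gene Ccng2 (1.58 ± 0.12) and the stress-response gene Ier3 (1.10 ± 0.14) were higher.

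The chosen genes were 0.676% of all genes measured, a share at which gene lists of the sizes used here would hold at most about 1, so a count of 0 carries no information. The pluripotency list had 0 of 41 measured genes, antigen presentation 0 of 25, cardiomyocytes 0 of 30, blood and endothelium 0 of 25, visceral endoderm 0 of 24 and a list of amino acid, acyl-CoA and folate enzymes 0 of 60, which did not include Aass, Ppm1k or Ndufs5. Lists of genes that move in differentiation were unlikely to hold one, since the rule asks for steadiness and the median pluripotency gene stood at -1.75 in embryoid bodies against PSC. The fibroblast list had 1 of 33 (S100a4), although 7 of its genes differed by at least 1 between PSC and ESC. The list of drug and glutathione metabolism had 2 of 62 (Gstp1 and Slc47a1), and a list of zinc finger genes had 3 of 82, lower in PSC (Zfp423, Zfp936 at -1.48 ± 0.13 and Zfp229 at -1.14 ± 0.23). The zinc finger genes Zfp869 and Zbtb10 (1.19 ± 0.11), which are not on that list, were higher. The cilium list (1 of 37) and the list of genes known to vary between strains (1 of 33) each held Rpgrip1, which had been put there with its value known.

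Chromosome 14 carried more of the chosen genes than any other chromosome. It held 16 of its 646 measured genes (2.48%; 6 higher and 10 lower), against 105 of 16146 (0.65%) on the other chromosomes considered, where the share ran from 0% to 1.08%. The same chromosome stood apart on the PSC minus ESC and level limits alone. Of genes with a mean above 7, 31 of 282 on chromosome 14 (11.0%) differed by at least 1 between PSC and ESC, against 328 of 7388 elsewhere (4.44%). These 31 genes include the 16 chosen ones and use the same limits, so this share is no separate evidence. The 16 genes lay along the whole chromosome in both directions, in the order Nudt13, Hesx1, Arhgef3, Smim4, Mapk1ip1l, Pnp, Rpgrip1, Supt16, Abhd4, Eef1akmt1, Enox1, Mzt1, Bora, Slain1, Tgds and Tmtc4. Many of these differences were near a limit, since 5 remained with a minimum of 1.5, and 10 with embryoid bodies held within 0.4.

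**Figure D3:**
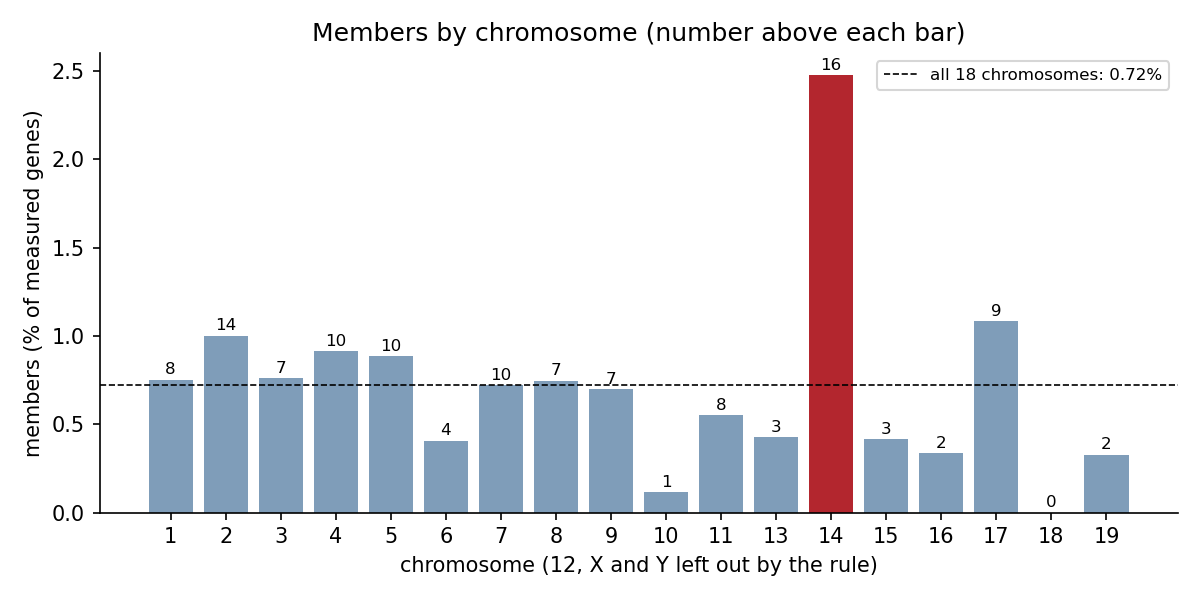
Share of measured genes on each chromosome that were chosen (percent, bars from 0), with the number of chosen genes over each bar. Chromosome 14 stands at 2.48% and the next highest, chromosome 17, at 1.08%.

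**Figure D4:**
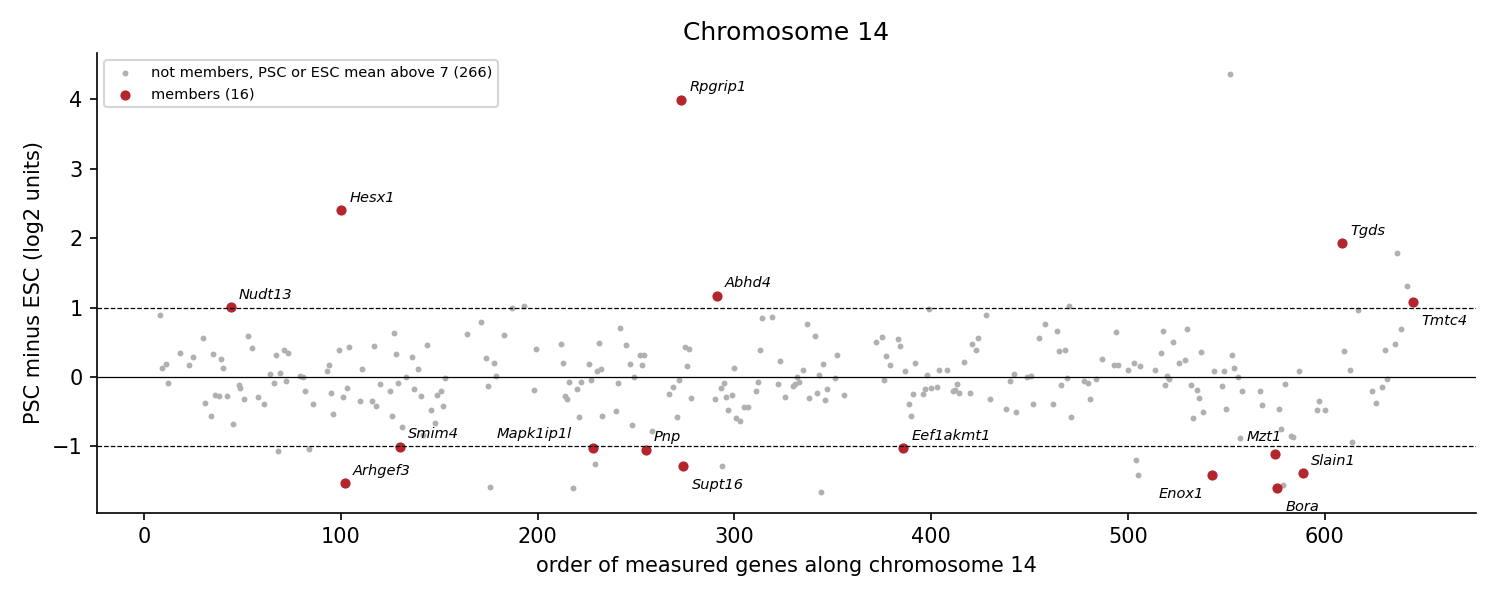
PSC minus ESC difference (vertical, log2 units) of genes with a PSC or ESC mean above 7, in their order along chromosome 14 (horizontal, rank of the measured gene), with chosen genes in red and named. The 16 chosen genes lie on both sides of 0 and along the whole length, and the grey point above Rpgrip1 is Rgcc, at 4.36, which was not kept because its EB_PSC minus PSC difference was -1.67.

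Some chosen genes were neighbours, 8 pairs within 5 measured genes of each other, of which 4 moved the same way and 4 oppositely. How many such pairs the density of chosen genes alone would give was not computed, so no clustering is read from this count. Mzt1, which encodes a small component of the microtubule-nucleating gamma-tubulin ring, and Bora lie side by side and were both lower. Mzt1 was 9.60, 9.43 and 9.62 in PSC, 9.70 and 9.52 in embryoid bodies, and 10.86, 10.50 and 10.61 in ESC. Bora was 8.01, 7.92 and 8.24 in PSC, 7.85 and 7.37 in embryoid bodies, and 9.79, 9.56 and 9.61 in ESC. Both genes were also lower on other probe sets, at -1.20 and -1.58 for Mzt1 and -0.99 for Bora, with a dim probe set of Mzt1 at -0.20. Beyond Bora the next genes were Dis3 at -0.46, Pibf1 at -0.75, Klf5 at -1.56 and Klf12 at -0.10, none of them chosen. In embryoid bodies Dis3, Pibf1 and Klf5 stood at -0.65, 0.46 and -2.38 against PSC. Dach1 before Mzt1 was too dim in every group for its difference to be read.

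Rpgrip1 and Supt16 also adjoin, with overlapping spans in the annotation, and went opposite ways. Supt16 was 11.06, 11.02 and 11.13 in PSC, 10.93 and 11.01 in embryoid bodies, and 12.60, 12.14 and 12.32 in ESC, which is 2.44-fold lower in PSC. Its second probe set was also lower, by -0.98, but its embryoid body mean was at -1.20 against PSC. The flanking genes Hnrnpc and Chd8 differed by -0.05 and 0.44, against a median size of 0.18 over all genes, and were not chosen. On chromosome 9, Tmprss13, a membrane serine protease gene, and Fxyd6 adjoin and were both lower. Tmprss13 was 5.38, 5.32 and 5.14 in PSC, 5.10 and 5.15 in embryoid bodies, and 7.06, 7.06 and 7.11 in ESC. Fxyd6 was 7.45, 7.76 and 7.83 in PSC, 7.34 and 7.17 in embryoid bodies, and 9.88, 9.40 and 9.54 in ESC. Il10ra before the pair and Fxyd2 after it were below 5.44 in every group, so their differences cannot be read. The remaining pairs were Kank4 with Foxd3 and Myo1f with Hnrnpm, lower together, and Hesx1 with Arhgef3, S100a1 with S100a4 and B3glct with Fry, opposite.

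How much of a difference other probe sets of the same gene showed varied widely. Of the 123 genes 53 had a single probe set, and the other 70 had 136 further ones, of which 101 went the same way, 49 by at least 0.5 and 19 by at least 1. Among the 42 with a PSC or ESC mean above 7, 34 went the same way, 27 of them by at least 0.5. The single one opposite by at least 0.5 was a dim probe set of Cdk12 at 0.60. Averaged over all probe sets of a gene, the difference shrank by over 1.5 times in 47 of the 70 genes. Among them were Nol4l at 1.03, Zc3hav1 at 0.95, Tiam1 at -0.33, Cdk12 at -0.22 and Med29 at -0.29. In 9 genes a second probe set passed every limit in the same direction: Phf21a, Nln, Mzt1, Zbtb10, Fcsk, Trps1, Snapc3, Mettl23 and Mindy2. Probe sets with identifiers that mark possible cross-hybridisation represented 17 of the 123 genes (13.8%), against 9.02% of all genes. Without them Grasp had a difference of -0.05 in place of 1.30 and Sh3d19 of 0.49 in place of -1.01.

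**Figure D5:**
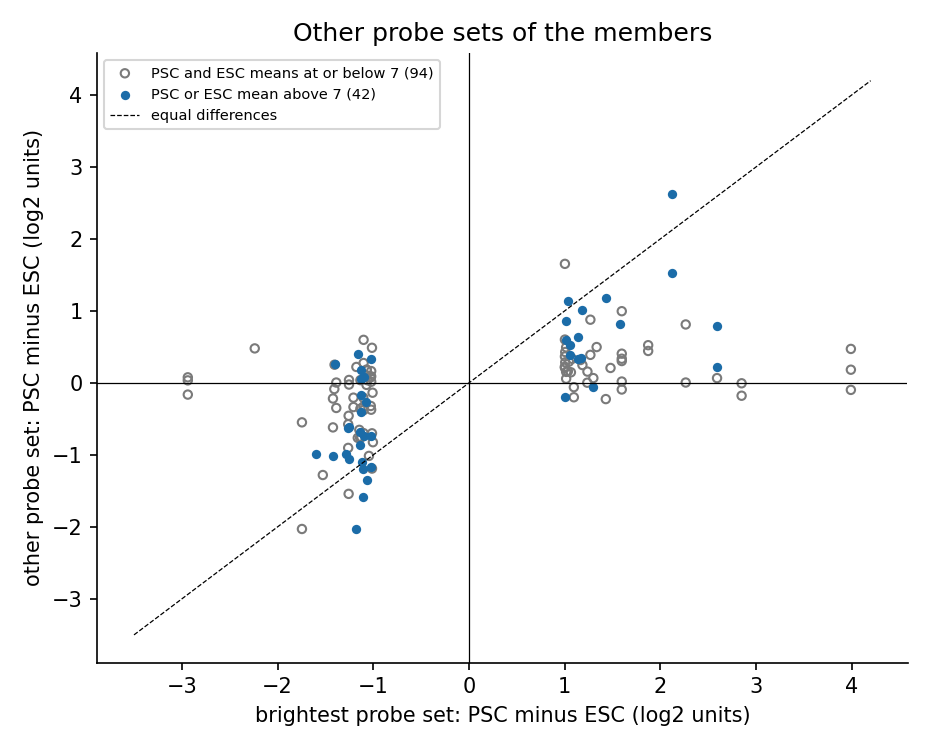
PSC minus ESC difference (log2 units) on each gene's brightest probe set (horizontal) against that on its 136 other probe sets (vertical), for 70 chosen genes. Points follow the direction of the brightest set in 101 cases and mostly lie nearer to 0, and the 3 other probe sets of Rpgrip1 lie at 0.18, -0.10 and 0.47.

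The limits cut through a continuous range. Just inside the minimum of 1 were Lin9, Btbd1 and C2, each at 1.00, and just outside were Epb41l1, Sbf2 and Ddx21, at 0.99 to 1.00. At the limit of 0.5 in embryoid bodies, Med29 (0.50), Scaf1 (-0.49) and Nudt13 (-0.49) were inside and Cars2 (-0.51), Slc7a7 (-0.52) and Tmc7 (0.52) outside. At the level of 7, Myo1f, Decr2 and Ppm1k were inside at 7.02 to 7.04 and Ppcdc, Notum and Nod1 outside at 6.90 to 6.97.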

How the data were processed

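RNA from 3 PSC, 2 EB_PSC and 3 ESC samples was hybridised to 8 1-colour arrays. The deposited values are log2 signals that the authors made with RMA, per the submitters' processing notes, and were used as deposited. The sources used here give no version or settings for it. Array medians ran from 5.39 to 5.47. Because RMA equalises the arrays, a change common to most transcripts stays hidden, and differences of dim probe sets shrink. The number of arrays limits the precision.

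Of 45101 probe sets 34958 name 1 gene in the platform annotation, and each of 18194 genes was represented by its brightest. RefSeq (GRCm38.p6) gave chromosomes, gene order and promoters. It matched 121 of the 123 genes. The filter on chromosomes could not be applied to C730049O14Rik and 2210408K08Rik. Standard errors came from limma 3.58.1 in R 4.3.3, fitted on all genes and arrays with group as the term (5 residual and 8.07 prior degrees of freedom), checked on simulated data. Tables were handled in Python 3.11.15 with pandas 2.3.3 (NumPy 2.4.6) and drawn with Matplotlib 3.10.9. The genes and lists were chosen with earlier results of these data known, and groups by function after the values were seen. Named were the 15 largest differences each way, neighbours within 5 measured genes, up to 6 genes of each list, the 4 steadiest of at least 2 and 3 genes either side of each limit. Further genes were named from their groups after their values were seen. Alternatives covered probe set choice, scaling, each limit, medians, a replicate block and each array left out.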

Additional observations from a re-analysis of the deposited data

How the results depend on the processing

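The count of 123 genes was within 1.5 times under most alternatives and the identity of the genes was less stable. With every probe set of a gene averaged 76 genes passed, 27 of them higher and 8 on chromosome 14, and 59 were shared. With a minimum difference of 0.8 the count was 257 (98 higher, 159 lower), and with 1.5 it was 31 (17 higher, 14 lower, 5 on chromosome 14). With embryoid bodies held within 0.4, 102 passed and chromosome 14 had 10. Leaving out 1 array gave 88 (without ESC 1) to 169 (without ESC 2) genes, with 40 to 67 higher, 48 to 102 lower and 11 to 17 on chromosome 14, of which 83 to 117 were shared with the 123. Of the 123, 59 passed without each array in turn (29 higher, 30 lower), and 51 of these also under both scalings and medians. The genes Aass, Aven, B3glct, Ccng2, Mindy2, Pdpn, Tgds, Vasp, Wfdc2 and Zfp869 passed under all 21 alternatives. Of these only Ccng2 and Mindy2 have more than 1 probe set, so averaging probe sets could not change the others. Alternatives that only loosen a limit could not remove any gene. Cyclic loess, which moved the median EB_PSC minus PSC difference of all genes by 0.13, kept 95 of the 123 and a second quantile normalization kept 102. With averaged probe sets the difference shrank by over 1.5 times in 47 of 70 genes. Grasp (-0.05) and Sh3d19 (0.49) reversed without probe sets marked for cross-hybridisation, since another probe set then represents them. The number of genes on chromosome 14 under each alternative was examined after seeing the data. For the other changes the cause was not tested.

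Whether the replicate numbers pair the samples was not settled by the correlation of deviations from group means. For same-numbered arrays it was -0.25, -0.07 and -0.04 between PSC and ESC. It was -0.14 and 0.04 between PSC and EB_PSC, and 0.16 and 0.22 between EB_PSC and ESC. For different-numbered arrays it ran from -0.13 to 0.21, from -0.18 to 0.18 and from -0.22 to 0.10 in the same order. With the replicate number as a block 120 genes passed, 118 of them shared. Dim signals limit 9 of the genes, whose differences are lower bounds for the probe set used and not for the gene.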

Other observations

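Probe sets without a single gene symbol were outside the rule. Of 10143 such probe sets 39 passed the same numeric limits, 15 higher and 24 lower in PSC. No filter on chromosomes or imprinted genes was applied to them, so they may include genes that the rule leaves out. The widest of the 39 probe sets had no gene name here. It stood at 3.80, 4.46 and 4.59 in PSC, at 4.60 and 4.28 in embryoid bodies and at 9.96, 9.78 and 9.89 in ESC, a difference of -5.59. The next stood at -4.78. Both exceed the difference of Rpgrip1 in size and are lower bounds, since their PSC means lay below 5.44. Their chromosomes were not looked up, so they are not counted as line differences of the kind described here.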
